A study of Mus musculus with 4 samples.

Results

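Genes that encode the replication-dependent histones had Runx2 peaks more often than protein-coding genes as a whole at all 3 stages of osteoblast differentiation examined. The group was taken as every protein-coding gene of the GENCODE M1 annotation whose symbol begins with Hist1h, Hist2h, Hist3h or Hist4h, which gave 67 of 22380 protein-coding genes. A Runx2 peak was given to a histone gene when it shared at least 1 bp with the gene body widened by 1 kb on each side. Of the 67 genes, 6 encode linker histone H1, 19 encode H2A, 18 encode H2B, 11 encode H3 and 13 encode H4.

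Runx2 is a Runt-domain transcription factor required for bone formation, and its occupancy was mapped by ChIP-Seq in a preosteoblast line from mouse calvaria, MC3T3-E1 (subclone 4, labelled as C57BL/6). Proliferating cells were collected at day 0, cells depositing matrix at day 9 and mineralizing cells at day 28, with ascorbic acid and beta-glycerophosphate used to drive differentiation. All 3 days used the same Runx2 antibody (M70), and the cells carried no genetic change. The 2 biological replicate libraries of each day were pooled by the authors, who compared every day with day 9 input DNA (2 libraries) and deposited 1 peak list per day, so no difference between days has a replicate error and none was tested. The input was not analysed here. All cells descend from 1 subclone.

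Replication-dependent histone genes supply the histones that package newly copied DNA, and most of them are transcribed only in S phase. They lack introns as a rule, and their mRNAs end in a stem-loop bound by Slbp in place of a poly(A) tail. Many H2A and H2B genes lie head to head and share one promoter, and the clusters gather at a nuclear structure, the histone locus body, that is organised by Npat. Within a class the genes are near copies of each other, which matters for reads of 36 bases, so the share of 36-base words that occur at a single place in the genome was computed for each gene and peak.

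There were 25457 peaks in the day 0 list, 60596 in the day 9 list and 40330 in the day 28 list. They hold no read counts, so depth cannot be given from them. The score of a peak is 10 times the negative log10 of its MACS p-value and depends on depth. Peaks were therefore compared by their percentile within the list of their own day, where 50 is the middle peak and the highest value stands for the strongest enrichment.

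Start regions of the H4, H1 and H2A genes with the highest day 9 ranks of their class are printed as examples of the DNA at these genes. Each sequence runs on the strand of the gene from 250 bases before to 50 bases from the annotated start, in NCBIM37, the assembly also called mm9. Capitals mark CCAAT on either strand (ATTGG when reversed), which is bound by NF-Y, and TATAAA on the gene's strand, the TATA box. The core Runx motif TGTGGT and the octamer ATTTGCAT were searched on both strands and were not among the letters of these 3 windows.
Hist1h4h, chr13:23622669-23622968, plus strand: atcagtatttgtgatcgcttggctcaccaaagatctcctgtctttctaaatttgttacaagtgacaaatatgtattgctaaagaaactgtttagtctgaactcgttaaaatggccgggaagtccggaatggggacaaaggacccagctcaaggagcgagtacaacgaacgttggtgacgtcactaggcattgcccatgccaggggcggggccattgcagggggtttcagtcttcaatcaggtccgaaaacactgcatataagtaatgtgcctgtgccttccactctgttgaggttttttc
Hist1h1e, chr13:23714322-23714621, minus strand: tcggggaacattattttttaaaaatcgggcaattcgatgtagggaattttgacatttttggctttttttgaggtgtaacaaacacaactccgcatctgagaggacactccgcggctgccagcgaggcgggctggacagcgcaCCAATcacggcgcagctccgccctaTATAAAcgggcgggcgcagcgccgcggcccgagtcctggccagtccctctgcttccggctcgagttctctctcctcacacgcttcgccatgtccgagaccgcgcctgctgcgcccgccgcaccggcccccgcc
Hist2h2aa2, chr3:96044167-96044466, minus strand: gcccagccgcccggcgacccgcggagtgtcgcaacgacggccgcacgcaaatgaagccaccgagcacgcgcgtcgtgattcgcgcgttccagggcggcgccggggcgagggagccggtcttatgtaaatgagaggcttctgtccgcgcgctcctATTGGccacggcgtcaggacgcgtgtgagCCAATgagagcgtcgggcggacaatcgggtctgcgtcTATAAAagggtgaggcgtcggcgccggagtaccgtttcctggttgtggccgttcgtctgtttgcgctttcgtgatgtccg

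Hist1h4h encodes H4 and has neither capitalised motif in this window, while the H1 gene Hist1h1e and the H2A gene Hist2h2aa2 have both. It does not stand for its class, since 7 of 13 H4 genes had TATAAA and 4 of 13 had CCAAT in the same window. The region of the copy Hist2h2aa1 differs from that of Hist2h2aa2 at 1 base of 300, and the start of the H3 gene Hist2h3c1 lies 16 bp inside the former, so neither is printed again. The region of Hist1h2be, the H2B gene with the highest day 9 rank, is not printed because the peak that gives this rank was centred over Hist1h1e, at -937 bp from the start of Hist1h2be.

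The next sequence is the whole stretch between the starts of a head-to-head pair, Hist1h2bl on the minus strand at its left end and Hist1h2ai on the plus strand at its right end. Of the 13 such pairs, this one had the peak with the highest percentile at day 0 and was chosen after its values were seen. Capitals mark CCAAT, which was found at 4 places on either strand.
Hist1h2bl to Hist1h2ai, chr13:21808012-21808281, plus strand: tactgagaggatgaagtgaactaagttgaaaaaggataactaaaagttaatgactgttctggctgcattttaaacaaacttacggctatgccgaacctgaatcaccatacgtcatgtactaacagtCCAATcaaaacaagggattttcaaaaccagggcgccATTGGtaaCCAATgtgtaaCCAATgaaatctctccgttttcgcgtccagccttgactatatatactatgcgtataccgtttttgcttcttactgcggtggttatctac

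At day 0, 61 of the 67 histone genes had a Runx2 peak (91%, 95% interval 81.5 to 96.6%), against 50.5% of all protein-coding genes. At day 9 the number was 64 (95.5%, 87.5 to 99.1%), against 64.2% of all genes. At day 28 it was 57 (85.1%, 74.3 to 92.6%), against 58.7% of all genes. The histone share was thus above that of all genes in each deposited list. This depended on weak peaks at day 28, since with a score of at least 500 the histone share there was 35.8%, against 43.3% of all genes. It was also highest at day 9 only in the full lists, since among the 25457 top peaks of each list the histone shares were 91%, 67.2% and 70.1%, against 50.5%, 51.1% and 52.4% of all genes.

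Histone genes are short, and a longer gene has more room for a peak, so the count was repeated with a window of 1 kb on each side of the start for every gene. The histone counts were again 61, 64 and 57, while the shares of all genes were 41.5%, 50.7% and 48.9%. Neighbouring histone genes shared peaks, so the genes are not independent units. The counts rest on 50 distinct day 0 peaks, 65 day 9 peaks and 49 day 28 peaks, of which 28, 37 and 28 reached 2 or more histone genes.

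Most of these genes kept a peak at every day. A peak was present at all 3 days for 55 of 67 histone genes (82.1%), against 48.6% of all genes. A further 4 had a peak at days 0 and 9, and 2 at days 9 and 28. Counted as merged regions in place of genes, 44 of 54 histone regions held a peak of all 3 lists (81.5%), against 27.4% of all regions and 74% of regions at protein-coding starts. The gap to other start regions was thus smaller than the gap to all regions.

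The genes with a peak at a single day, or none, were few and belonged to named groups. Hist1h2ba and Hist1h2aa, a head-to-head pair known for expression in the testis, shared 1 peak of score 159 at day 9 (percentile 29.7) and had none at days 0 and 28. Hist3h2ba, an H2B gene, had a day 9 peak of score 112 (percentile 8.2) alone. Hist1h1t, the testis-specific H1 gene, had no peak at any day, and the nearest peaks lay 1168, 1256 and 1225 bp away at days 0, 9 and 28.

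The 2 genes with a peak at day 0 alone both encode H1. Hist1h1b had a peak of score 408 (percentile 66), centred 602 bp from its start inside the gene, where 98.2% of 36-base words in the body occur once. Hist1h1a was reached by a day 0 peak of score 342 (percentile 59.3) that was centred at -1427 bp from its start, over the neighbouring gene Hist1h3a. Hist1h1a thus had no peak of its own at any day by this measure.

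Among the linker histone genes, Hist1h1e had the strongest peaks, with scores of 780, 1832 and 1703 at days 0, 9 and 28. Their percentiles of 86, 89.7 and 88.4 put them well above the middle of each list. The peaks of Hist1h1c scored 779, 898 and 887, with percentiles of 85.9, 78.7 and 75.4, and those of Hist1h1d scored 135, 304 and 160, with percentiles of 16.5, 54.3 and 23.3. The 6 genes of this class thus ran from no peak to a rank near the top at the same day. H1 genes are the least alike of the classes, with a median coding identity of 70.6% between pairs.

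All 13 H4 genes had a peak at every day, as did all 11 H3 genes. The highest H4 rank was at Hist1h4h on chromosome 13 (ENSMUSG00000060981, positions 23622919 to 23623388, plus strand), whose scores were 965 at day 0, 2502 at day 9 and 1827 at day 28. These correspond to percentiles of 90.1, 93.3 and 89.5, and the peaks were centred 261, 181 and 256 bp inside the gene. Hist1h4d followed at day 9, with scores of 523, 1924 and 1056 and percentiles of 74.8, 90.3 and 79.4. At the other end was Hist4h4, a lone H4 gene on chromosome 6 (positions 136752589 to 136752900, minus strand), with scores of 109, 153 and 197 and percentiles of 4.6, 27.6 and 31.9. Genes that encode one identical protein of 103 residues therefore ranged from the bottom to the top of the day 0 list.

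The H4 genes show how far the DNA differs where the protein does not. The first 60 coding bases of 6 of the 13 genes are printed to set the 3 best ranked at day 9 in the Hist1h group beside Hist4h4, Hist2h4 of the Hist2h cluster and Hist1h4n, the near copy of Hist1h4m. Capitals mark a base that differs from the most frequent base of the 13 genes at that position.
Hist1h4h, chr13:23622984-23623043, plus strand: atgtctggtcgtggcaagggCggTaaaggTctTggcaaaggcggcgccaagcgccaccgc
Hist1h4m, chr13:21903653-21903712, plus strand: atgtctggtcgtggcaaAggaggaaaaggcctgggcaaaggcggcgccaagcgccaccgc
Hist1h4n, chr13:21923968-21924027, minus strand: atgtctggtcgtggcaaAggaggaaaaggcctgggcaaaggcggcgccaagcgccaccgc
Hist1h4d, chr13:23673471-23673530, plus strand: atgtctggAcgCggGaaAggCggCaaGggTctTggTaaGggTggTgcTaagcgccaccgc
Hist2h4, chr3:96067168-96067227, minus strand: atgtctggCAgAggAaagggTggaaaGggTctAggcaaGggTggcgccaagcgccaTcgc
Hist4h4, chr6:136752841-136752900, minus strand: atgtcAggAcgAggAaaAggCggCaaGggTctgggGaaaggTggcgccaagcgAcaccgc

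Across all 13 genes, 19 of these 60 positions varied, and 18 of the 19 were at the third base of a codon. Over the whole 309 coding bases, 65 positions varied, of which 62 were at the third base. The stretches of Hist1h4m and Hist1h4n are the same, and Hist1h4i has it as well, whereas Hist4h4 differs from the most frequent base at 12 positions. In the bodies of these genes, 9.81% of 36-base words occur once in the genome for Hist1h4m and 6.84% for Hist1h4n, against 97.7% for Hist2h4 and 100% for Hist4h4. The values of Hist1h4m and Hist1h4n are therefore uncertain as values of either gene.

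The H4 gene Hist2h4 had a peak of score 342 at day 0 (percentile 59.2), 1250 at day 9 (84.2) and 1244 at day 28 (82.7). The peaks of Hist1h4c scored 601, 1127 and 891, and those of Hist1h4b scored 261, 479 and 154. Hist1h4m had scores of 567, 1219 and 529 for the peak on the gene itself (a peak at Hist1h2bq within 1 kb of it scored 593 at day 0), and its copy Hist1h4n had 709, 1135 and 782.

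For H3, the 3 Hist1h genes with the highest day 9 percentiles were Hist1h3i, Hist1h3e and Hist1h3a. Scores of Hist1h3i were 537, 667 and 454, with percentiles of 75.5, 73.2 and 59. Hist1h3e had 723, 664 and 368, with percentiles of 84.2, 73.1 and 53.1. The percentile of both genes was lowest at day 28. The highest percentiles of Hist1h3a, 63.4, 71.9 and 64.5 at days 0, 9 and 28, are of peaks centred in Hist1h4a that do not touch Hist1h3a. The peaks on Hist1h3a itself had percentiles of 59.3, 69.5 and 55.1, so these were highest at day 9 and again lowest at day 28.

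Of the 19 H2A genes, 17, 19 and 16 had a peak at days 0, 9 and 28, and of the 18 H2B genes, 15, 18 and 14 did. The median of their highest percentiles was 73.1, 70.6 and 59.8 for H2A and 69.3, 56.8 and 42.2 for H2B. H2B thus had the lowest day 28 median of the 5 classes. Without the 1 kb margin, 9 of the 18 H2B genes had a day 28 peak, so the H2B values at that day rest partly on peaks beside the genes. The best ranked Hist1h members of H2A at day 9 were the copies Hist1h2ao and Hist1h2ap, followed by Hist1h2ag, whose scores were 684, 666 and 560. The day 9 values of Hist1h2ao and Hist1h2ap (scores 1219 and 1135) are those of the peaks of the adjacent Hist1h4m and Hist1h4n, and those of Hist1h2ag are of peaks on Hist1h4i. The peaks centred in Hist1h2ao and Hist1h2ag themselves scored 574 and 262 at day 9. Those of H2B after Hist1h2be were Hist1h2bg, with scores of 415, 588 and 414, and Hist1h2bq, with 593, 574 and 383. The day 9 value of Hist1h2bg is of a peak centred in Hist1h2ae, and the peak centred in Hist1h2bg itself scored 276 (percentile 51.4). For Hist1h2bq, the later 2 values are of peaks centred in Hist1h2ao. Hist1h2al, an H2A gene that lies apart from the clusters, had no day 0 peak and scores of 430 and 348 at days 9 and 28.

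The strongest peaks of the whole group lay in the Hist2h cluster on chromosome 3. Hist2h2aa2 had a score of 2048 at day 0 and of 3100 at days 9 and 28, where 3100 is shared by many peaks and marks the top of the scale. Its percentiles were 97.7, 97.6 and 98. A separate peak over Hist2h2aa1 and Hist2h3c1 scored 1345, 3100 and 3100. These peaks sit on an inverted duplication, and the words that occur once made up 30.5%, 11.9% and 16.8% of the Hist2h2aa2 peaks, so the reads of one copy cannot be told from those of the other over most of their length.

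The other members of this cluster ranked lower. The highest peak within 1 kb of Hist2h2ab, Hist2h2ac and Hist2h2be scored 690, 731 and 1049, with percentiles of 82.9, 75.1 and 79.2. It covered Hist2h2ab and Hist2h2ac at days 0 and 28. At day 9 it lay on Hist2h2ac alone, and Hist2h2ab had a peak of its own (score 588, percentile 70.7). At no day did it touch the body of Hist2h2be. Hist2h3b had scores of 728, 365 and 592. Its day 0 and day 28 peaks also covered the start of Hist2h2bb, an H2B gene with a model of 9281 bp. Within that model a separate peak, in sequence where every word occurs once, scored 282, 1184 and 1058 and was centred 8501, 8409 and 8416 bp from the start. All 9 Hist2h genes had a peak at each day. In the Hist3h pair, Hist3h2a had scores of 389, 1364 and 949 and percentiles of 64.2, 85.6 and 77, in a window where 93.9% of words occur once.

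**Figure D1:**
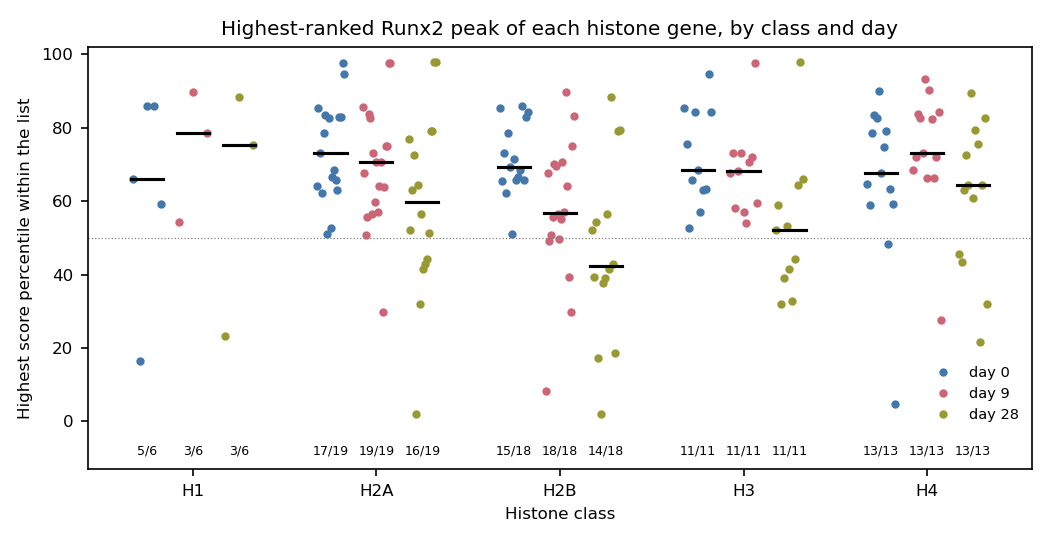
Highest peak percentile (within the list of each day, 0 to 100) of the 67 histone genes, by class and day, with 1 point per gene that had a peak, the class median as a bar, and the genes with a peak of all in the class along the bottom. The H2B medians are 69.3, 56.8 and 42.2 at days 0, 9 and 28, and those of H4 are 67.8, 73.1 and 64.5.

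Most of the peaks were centred inside the genes, although many also covered the start. Of the day 0 peaks, 32 of 50 (64%) were centred in coding sequence, against 5.84% of all day 0 peaks and 14% of those within 1 kb of a protein-coding start. At day 9 the share was 84.6% (55 of 65), against 7.38% of all peaks and 19% of start peaks. At day 28 it was 77.6% (38 of 49), against 5.92% and 16.4%. The coding sequence is in a single part in 17 of 18 H2B genes and in every gene of the other classes with a usable frame, so a peak a short way inside most of these genes falls in coding sequence.

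Distance from the annotated start is a separate measure, except for the 8 histone genes whose annotated start is the start codon. At the start itself 86.6%, 73.1% and 68.7% of histone genes were covered by a peak at days 0, 9 and 28. Coverage was highest from 190 to 420 bp after the start at day 0, where 88.1% of histone genes were covered. The highest coverage was 86.6% at day 9, from 110 to 220 bp, and 74.6% at day 28, from 150 to 330 bp. Over all protein-coding genes the highest coverage lay between 50 and 90 bp after the start and reached 38%, 44.9% and 45.2%. The gain over the start was thus 1 gene at day 0 and larger at day 9. The H4 genes reached 100% at each day, and the H3 genes did so as well. In H2B genes the highest coverage lay before the start at day 9 (83.3%, from -630 to -530 bp) and at day 28 (72.2%, from -360 to -270 bp), the side on which the paired H2A gene lies in most of them.

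**Figure D2:**
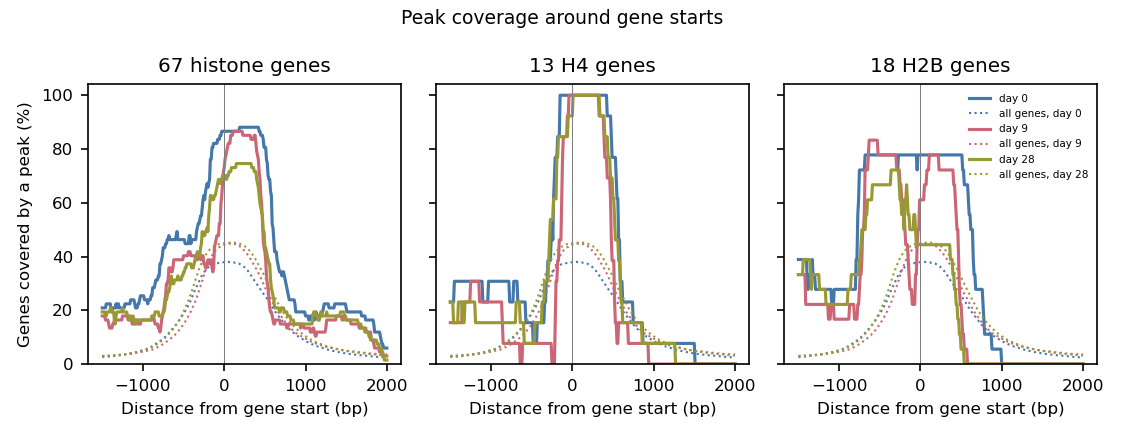
Share of genes covered by a Runx2 peak (percent) against the distance from the annotated start (bp, positive inside the gene), for all 67 histone genes, the H4 genes and the H2B genes (solid lines) and for all protein-coding genes (dotted lines) at each day. The curves of the 67 histone genes peak at 88.1%, 86.6% and 74.6%, to the right of those for all genes, while the H2B curves peak before the start at days 9 and 28.

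Around the head-to-head pairs, which join H2A to H2B genes except for Hist1h2bh and the H3 gene Hist1h3f, the layout of the peaks differed between the lists. The starts of the 13 pairs lie 168 to 693 bp apart, with a median of 241 bp. At day 0, 12 pairs had a peak, and in 10 of them it was 1 peak that covered both starts. At day 9 all 13 pairs had a peak, but 9 of them had 2 peaks, 1 centred on each gene and none between, and only 1 pair had a peak over both starts. At day 28, 10 pairs had a peak, with 1 peak over both starts in 3 and separate peaks on each gene in 4.

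The pair printed above follows this course. At day 0 a peak of 1845 bp (score 763, percentile 85.4) covered Hist1h2bl, the printed stretch and Hist1h2ai. At day 9 there were 2 peaks, one of 521 bp (score 404) centred 244 bp inside Hist1h2bl and one of 802 bp (score 507) centred 204 bp inside Hist1h2ai. At day 28 a peak of 1292 bp (score 355, percentile 52.1) again covered both starts. The pairs Hist1h2ak and Hist1h2bn, and Hist1h2an and Hist1h2bp, had 1 peak at day 0, 2 at day 9 and none at day 28.

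Peak width moved with this layout in the lists as a whole. The median width of peaks at the pairs was 1392, 529.5 and 651 bp at days 0, 9 and 28. The median over all peaks was 917, 554 and 763 bp, so it was lowest at day 9 in both. How far the width of the lists, or the larger number of reads at day 0, accounts for the separate peaks was not tested.

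**Figure D3:**
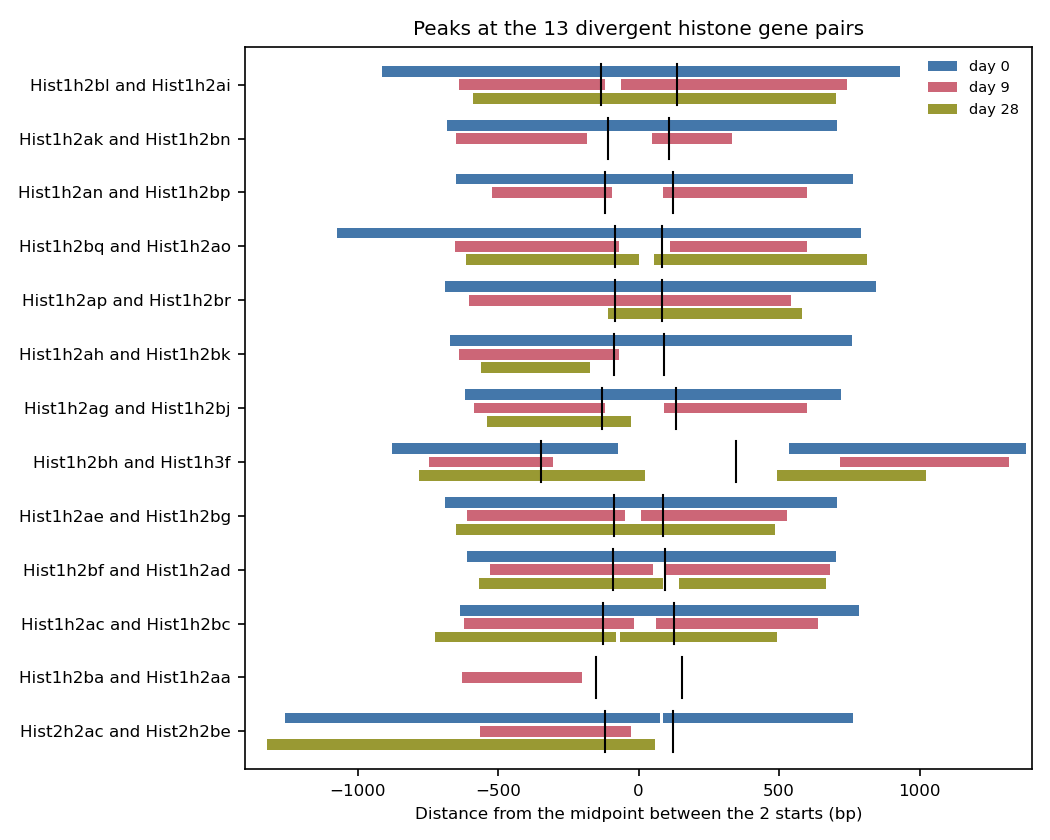
Extent of Runx2 peaks (bars) around the 13 head-to-head pairs at each day, in bp from the midpoint of the 2 starts, which are marked by vertical lines. At day 0, 10 pairs have 1 peak over both starts, and at day 9, 9 pairs have 1 peak on each gene.

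The core Runx motif was nearly absent from the centres of these peaks. TGTGGT, on either strand within 50 bp of the centre, was found in 0 of 50 histone peaks at day 0 (interval up to 7.11%), against 16% of all day 0 peaks. At day 9 it was in 1 of 65 (1.54%, the peak at Hist3h2a), against 25.3% of all peaks. At day 28 it was in 1 of 49 (2.04%, at Hist2h4), against 20.9%. Peaks within 1 kb of any protein-coding start held it in 4.33%, 5.54% and 4.64%. The gap to other start peaks was thus within the intervals of the histone shares at all 3 days. These intervals treat the peaks as independent, although some lie on near-identical copies.

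Base composition moved with the low motif share. The median GC content within 50 bp of the centre was 61.4%, 67.3% and 65.3% for histone peaks, against 54.5%, 55.4% and 54.5% for all peaks and 66.3%, 67.3% and 67.3% for start peaks. The median number of CpG in the same stretch was 8, 12 and 12, against 2 at each day for all peaks. Over the whole length of the peak, 44%, 35.4% and 34.7% of histone peaks held the motif somewhere. The part of base composition in the motif share was not tested.

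**Figure D4:**
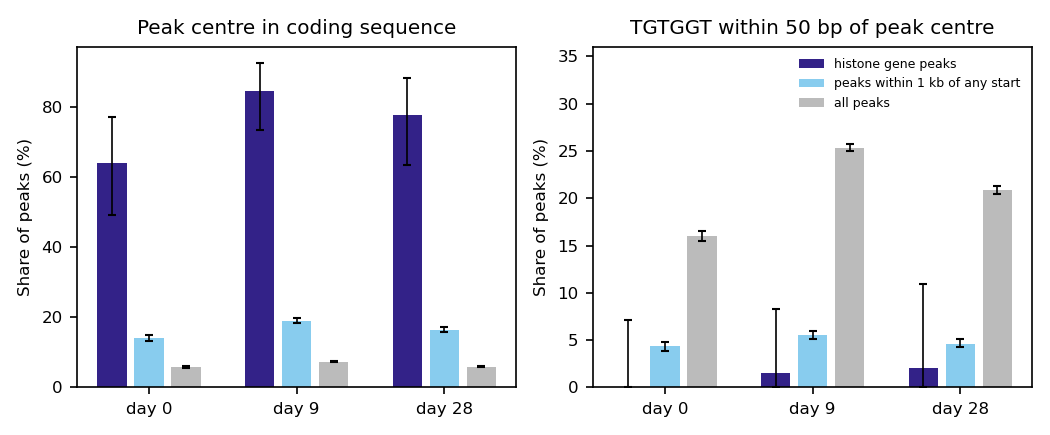
Share of peaks (percent, with exact 95% intervals) centred in coding sequence and with TGTGGT within 50 bp of the centre, for histone peaks, peaks at protein-coding starts and all peaks at each day. Histone peaks are highest for coding sequence (64%, 84.6% and 77.6%) and, like start peaks, low for the motif.

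The rank of the histone peaks within the list differed between days, with the limit that the lists differ in length and the days in read number. Among the 55 histone genes with a peak at all 3 days, the median of the highest percentile was 69.3, 70.7 and 56.6 at days 0, 9 and 28. Over all 10878 protein-coding genes with a peak at all 3 days it was 66.4, 86.7 and 82.8. The percentile was lower at day 28 than at day 0 in 43 of 55 histone genes (78.2%) and in 18.8% of all genes. It was lower at day 9 than at day 0 in 27 of 55 (49.1%), against 14% of all genes. The histone median was thus close to that of all genes at day 0 and below it at days 9 and 28. In lists cut to the 25457 top peaks of each day, an alternative chosen after seeing the data, 40 histone genes had a peak in all 3 lists. Their percentile was lower than at day 0 in 37 of 40 at day 9 and in 37 of 40 at day 28, against 46.2% and 36.5% of all genes with a peak in all 3. The day 9 rank therefore depended on list length, from 27 of 55 lower in the full lists.

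The clusters differed in this. In the Hist1h group, 44 of 44 such genes had a lower percentile at day 28 than at day 9, and 38 of 44 a lower one than at day 0. In the Hist2h group these counts were 2 and 5 of 9. Over all protein-coding genes with a peak at all 3 days the shares were 65.7% and 18.8%, so a lower percentile at day 28 than at day 9 was common in general. By class, the percentile was lower at day 28 than at day 0 in 12 of 13 H2B genes, 9 of 11 H3 genes, 12 of 15 H2A genes, 9 of 13 H4 genes and 1 of 3 H1 genes.

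The lower rank at day 28 moved with the sequence similarity of the peaks, and less so with that of the gene windows. Where the best peak of every day consisted to at least 80% of words that occur once, 0 of 5 genes ranked lower at day 28 than at day 0, and their median percentile was 64.2, 85.6 and 82.7. These genes are Hist3h2a, Hist2h4, Hist4h4, Hist1h1e and Hist1h2be, the last of which shares its peak with Hist1h1e. Where the lowest of the 3 values was 60 to 80%, 6 of 10 genes ranked lower at day 28, and at 40 to 60%, 16 of 16 did. Under 40%, 21 of 24 genes ranked lower at day 28, with median percentiles of 69, 68.9 and 42.9. By the window of the gene, 20 of 28 genes with at least 80% of words that occur once ranked lower at day 28. Among the genes under 80%, 23 of 27 did. These bands and this split were chosen after the values were seen. The share of such words in a peak depends on the extent of the peak, which differed between days. How much of the change in rank comes from reads that match several places was not tested. Hist1h2be, whose annotated model spans 37383 bp, is in the highest band only through the peak over Hist1h1e. The peak in its own coding sequence had percentiles of 68.6, 61.2 and 35.2 at days 0, 9 and 28. Words that occur once made up 53.4%, 32.4% and 61% of that peak.

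**Figure D5:**
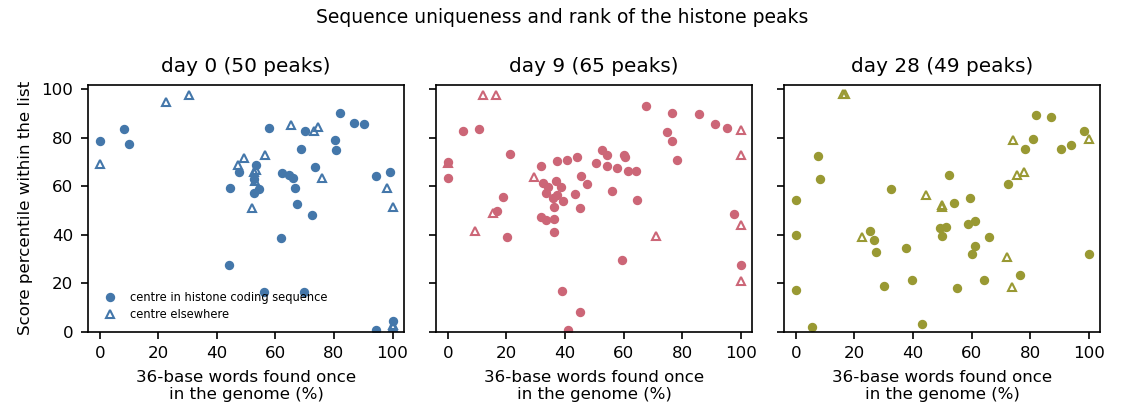
Peak percentile within the list of each day against the share of 36-base words of the peak that occur once in the genome (percent), with 1 point per histone peak, filled where the peak centre is in histone coding sequence and open elsewhere. At day 28 the 8 peaks with at least 80% such words have a median percentile of 79.4, and the 41 others one of 42.8.

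Sequence similarity was a property of the group as a whole. Within 1 kb of the start, the median share of 36-base words that occur once was 75.6% for histone genes and 98.9% for all protein-coding genes, and 37 of 67 histone genes were under 80%, against 12.3% of all genes. Among the peaks, 13 of 50 reached 80% at day 0, 9 of 65 at day 9 and 8 of 49 at day 28. Genes whose widened body reached 80% had a peak in 31, 33 and 29 of 36 cases. Without the margin, the bodies of these 36 genes had a median share of 61.5%, from 15.7 to 100%. The extreme was an inverted duplication on chromosome 13, Hist1h2bq, Hist1h2ao and Hist1h4m on one side and Hist1h2br, Hist1h2ap and Hist1h4n on the other. The 300-base start regions of its 3 gene pairs differed at 0, 0 and 1 bases, so peaks on either side cannot be told apart.

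In the larger Hist1h cluster and the Hist2h cluster nearly all peaks lay at histone genes, and in the other Hist1h cluster most did. In the larger Hist1h cluster (chr13:23622919-24026720), the windows of 31 histone genes make up 27.6% of the span and held 23 of 23 peaks at day 0, 31 of 34 at day 9 and 26 of 28 at day 28. In the other one (chr13:21807632-22135545), the windows of 23 genes make up 14% of the span and held 17 of 27, 21 of 30 and 14 of 20 peaks. In the Hist2h cluster (chr3:96023839-96082924) all 8, 9 and 6 peaks lay in histone windows. The sodium phosphate transporter genes Slc17a1, Slc17a2, Slc17a3 and Slc17a4 of the larger cluster had no peak at any day, and neither had Trim38. All of them lie in a stretch without histone genes, between Hist1h1a and the pair Hist1h2ba and Hist1h2aa. Hfe in the same cluster had a peak at days 9 and 28, and Gm17658, whose window overlaps that of a histone gene, had one at each day. In the other cluster Zfp184 and Prss16 had a peak at each day and Pom121l2 had none.

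The 1 kb margin decided whether a gene had a peak in few cases but often decided which peak gave its highest value. Without it, 60, 60 and 52 genes had a peak at days 0, 9 and 28. At day 28 the genes that depended on the margin were all H2B genes, of which 14 had a peak with it and 9 without it. The highest-ranked peak lay in the margin alone for 12 of 61, 22 of 64 and 18 of 57 genes, at up to 987 bp from the body (Hist1h1a) at day 0 and 991 bp (Hist1h2ag) at day 9. Some peaks touched none of the counted histone genes. The furthest of them lay 489 bp away at day 0 (Hist1h4j), 251 bp at day 9 (Hist2h4) and 167 bp at day 28 (Hist1h2bm). The day 28 peak at Hist1h2bm lies inside the pseudogene Hist1h2aj. Between 1 and 2 kb outside the genes, a single further peak was found, 1533 bp from Hist1h2ah at day 9 with a percentile of 32.8.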

How the data were processed

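Runx2 ChIP-Seq libraries of MC3T3-E1 cells (36-base single-end reads, fragments of 200 ± 50 bp, 2 libraries at each of day 0, 9 and 28) were processed by the authors with CASAVA 1.6, mapped to mm9 with Bowtie 0.12.8 and pooled per day. Peaks were called with MACS 1.4.1 at default settings and retained at a p-value of 1e-10. How reads that match several places were handled is not given in the sources used here. The score deposited by the authors is the MACS p-value as −log10, multiplied by 10. Its lowest value is 100, and scores of 3100 and over (211, 2910 and 1630 peaks at days 0, 9 and 28) were ranked as ties.

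Peaks were joined here to GENCODE M1 protein-coding genes on NCBIM37, with positions counted from 1, using the widened gene body, a window of 1 kb around the start, and merged regions of peaks sharing at least 1 bp. Every 36-base word of the assembly was counted on both strands, which gave the share of words that occur once. Coding sequences were aligned within each class for identity, and 1 H2A gene had no coding frame that could be used. Pairs were head-to-head genes with starts within 1000 bp. Both strands were searched for TGTGGT within 50 bp of the peak centre, because the lists give no summit. Shares carry exact binomial (Clopper-Pearson) 95% intervals, which cover counting error only. They treat genes and peaks as independent, which neighbouring genes and near copies are not. With 1 list per day, no test was made.

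The named genes are all Hist2h, Hist3h and Hist4h genes, the 3 best ranked of each class in Hist1h at day 9, those with a peak at 1 day or none, and those with the highest-percentile peaks. A few genes beyond this rule (Hist1h4b, Hist1h4c, Hist1h4n, Hist1h2al and genes named as neighbours or pairs) were chosen after their values were seen. The histone genes and gene lists were chosen with earlier results of these data known. Alternatives covered the score threshold, the window, an equal number of top-scoring peaks, the uniqueness of the sequence and the motif window. For the change in rank between days they were chosen after seeing the data. The procedures were tested on simulated data. Python 3.11.15, NumPy 2.4.6, SciPy 1.17.1, Biopython 1.88, pysam 0.24.0, numba 0.67.0 and Matplotlib 3.10.9 were used.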

Additional observations from a re-analysis of the deposited data

How the results depend on the processing

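Of 76 alternative values, 58 were within the limit set and 18 moved past it. The limit was 1.5 times for counts, the 95% interval for motif shares and 1 SD of the peaks for percentiles, and it is wide: 64 to 45 genes at day 9 and 49 to 34 peaks at day 28 (equal numbers of top peaks) fell within it. With a score of at least 500, histone genes with a peak numbered 26, 37 and 24 at days 0, 9 and 28 (38.8%, 55.2% and 35.8%, against 19.8%, 46.3% and 43.3% of all genes), so that at day 28 the histone share fell below that of all genes. Their peaks numbered 16, 28 and 16, and 11 regions held a peak of all 3 lists. With an equal number of top peaks per list (25457), the day 9 list kept 39 histone peaks, and 27 regions held a peak of all 3 lists. Limiting the count to the 36 genes whose widened body is at least 80% unique left 31, 33 and 29 with a peak, out of fewer genes. The median percentile at day 28 was 79.4 in peaks with at least 80% unique words. The motif share over the whole peak was 44%, 35.4% and 34.7%. The count of genes ranked lower at day 28 than at day 0 was 20 of 28 for genes with at least 80% unique words in the window and 0 of 5 for those with such peaks at every day, both chosen after seeing the data. It was 37 of 40 in lists of equal length and 39 of 51 for peaks that touch the gene body. Hist1h2be is among the 5 genes only through the peak over Hist1h1e. No paired analysis was possible because the replicates of each day were pooled into 1 list, and for the same reason no replicate could be left out. The lists hold no read depth, so a gene with no peak may lie under the limit of detection.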

Other observations

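Genes that act on histone genes formed a second list. It held 24 genes of histone gene transcription, histone mRNA processing and entry into S phase, and 22, 24 and 24 of them had a peak at days 0, 9 and 28, with a peak at the start in 21, 22 and 22. Over all protein-coding genes the shares were 50.5%, 64.2% and 58.7% (41.5%, 50.7% and 48.9% at the start), without regard to gene length. Hinfp, the activator of H4 transcription, had percentiles of 98.4, 97.6 and 98, and Slbp, which binds the stem-loop of histone mRNA, had 97.8, 97.6 and 98. Npat, the organiser of the histone locus body, ranked lower, at 40.1, 82.7 and 73.2, as did Casp8ap2 at 47.6, 86.6 and 80.2. Ccne2, a cyclin of the G1 to S transition, had 90.6, 97.6 and 98. The median percentile of the start peaks of this list was 47.6, 83.5 and 80.2, and 1 of 22 genes with a peak at all 3 days ranked lower at day 28 than at day 0.

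Replication-independent histone variants, whose genes are spliced or lie outside the clusters, were a further list, with 11 of 12 symbols found. A peak was present in 10, 11 and 10 of them, beside the same shares of all genes. H2afx, the variant phosphorylated at DNA breaks, had percentiles of 94.6, 92.8 and 93.2, H1fx had 84.4, 97.6 and 93.6, and H2afv had 77.5, 94.2 and 98. At the low end, H2afj had 29.6, 76 and 44, the centromeric H3 gene Cenpa had 38.7, 72.8 and 65.5, and H1foo, the oocyte H1 gene, had a peak at day 9 alone (percentile 75).

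The start regions of the histone genes also differed from others in their motifs. From 250 bases before to 50 bases after the start, CCAAT (either strand) occurred in 57 of 67 histone genes (85.1%), against 37.9% of all genes. It was in every H1, H2A and H2B gene, in 10 of 11 H3 genes and in 4 of 13 H4 genes. TATAAA on the gene's strand was in 31 of 67 (46.3%), against 9.04%, with 4 of 6 H1, 11 of 19 H2A, 4 of 18 H2B, 5 of 11 H3 and 7 of 13 H4 genes. The octamer ATTTGCAT (either strand) was in 7 of 19 H2A and 8 of 18 H2B genes and in no other class, against 1.72% of all genes. TGTGGT (either strand) was in 6 of 67 (8.96%), against 15.3% of all genes. For 8 histone genes the annotated start is the start codon, so the window there is set too far into the gene.

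Of the annotated pseudogenes in the clusters, Hist3h2bb-ps, Hist1h2aj and Hist2h3c2, each had a peak in every list. The pseudogenes were not counted as genes, since their type in the annotation is pseudogene. Their peaks are nevertheless among those counted above, for the adjacent genes Hist3h2a, Hist1h2bm and Hist2h2aa2.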
